A study of Mus musculus with 8 samples.

Results

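The choroid plexus genes described here are 9 genes long used as markers of the choroid plexus epithelium: Ttr, Sostdc1, Enpp2, Folr1, Clic6, Aqp1, Cldn2, Kl and Otx2. They were taken by symbol from a table of 24015 entries, where all 9 were found, and all 9 passed the filter on low counts, which left 15588 genes for testing. The table holds read counts from the brains of 8 C57BL/6N mice at postnatal day 7. The mice came from 1 germline deletion line, made with Cas9, that lacks the 1b regulatory interval of the sodium channel gene Scn1a in every cell. There were 2 wild-type mice (WT, both male), 4 heterozygotes (1b+/-, replicates 1 and 2 male, 3 and 4 female) and 2 homozygotes (1b-/-, both female), all untreated. The tissue is given as hippocampus in the sample labels and as forebrain in the methods of the study, and total RNA came from regions dissected out of 1 hemisphere. Replicate numbers follow the order of the samples and pair nothing across genotypes.

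The choroid plexus is a tuft of vessels and stroma inside the brain ventricles, covered by a tight epithelium that secretes cerebrospinal fluid and screens what passes from blood into it. In the lateral ventricle it lies against the hippocampus. The epithelial cells make transthyretin, encoded by Ttr, in large amounts, and they depend on the homeodomain factor Otx2 for their development and upkeep.

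Promoter sequence was held for 4 of the 9 genes (Kl, Aqp1, Otx2 and Cldn2), as 7 windows. Each ran from 250 bases before to 50 bases after a RefSeq start in GRCm38.p6. Otx2 had 4 of the windows, and Kl, Aqp1 and Cldn2 had 1 each. No window was held for Ttr, Folr1, Clic6, Enpp2 or Sostdc1. Both strands were searched for TATAAA, the consensus that positions transcription in many tissue-specific promoters, and for TAATCC, the core bound by OTX factors, since Otx2 is itself 1 of the 9 genes. The 3 matches are shown with 12 bases on either side, in capitals over the motif, 5′ to 3′ on the strand of the gene. They lie in Cldn2 at chrX:139800761-139800790 (+ strand, 35 bases before the start), in Otx2 start 1 at chr14:48667819-48667848 (- strand, 192 bases before) and in Otx2 start 3 at chr14:48665303-48665332 (- strand, 211 bases before), where the OTX core reads on the opposite strand, as GGATTA.
Cldn2: gacagggaaaaaTATAAAacccaccaaacg
Otx2 start 1: gataagaaggagTATAAAggaagaagaaaa
Otx2 start 3: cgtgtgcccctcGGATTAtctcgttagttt
Of all 32851 windows in the same table, 13.62% held TATAAA and 7.06% held TAATCC on either strand. The windows of Kl, Aqp1 and Otx2 starts 2 and 4 held neither. GC content was 67.3% for Kl and 62.7% for Aqp1 against a median of 52.7% over all windows. A match describes the letters of a window and is not a bound site.

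The libraries held 2947770 to 20878772 reads in genes, so that 3 reads corresponded to 0.145 to 1.0 CPM, a unit in which edgeR's TMM factors put the 8 libraries on 1 scale. Scn1a, the gene the deletion targets, was at 40.5 to 45.1 CPM in WT, 15.7 to 26.7 CPM in 1b+/- and 2.0 to 3.18 CPM in 1b-/-, in the order of the labels. Genes of the neocortex were high in every library (Tbr1 at 183 to 361 CPM). A list of 8 hippocampal genes summed to 47.6 to 124 CPM. Of these 8 genes, 7 passed the filter on low counts, and Calb1, the most abundant, was at 12.8 to 46.6 CPM. Spink8, a gene of hippocampal pyramidal cells, did not pass and had at most 5 counts in any library. Which region the tissue came from was not tested. Since WT mice were all male and 1b-/- mice all female, sex and genotype cannot be told apart in that comparison.

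The 9 genes are scattered over 9 chromosomes and share no cluster. In mm9, the build of the files, the GENCODE annotation places Ttr at chr18:20823751-20832825 (+), Sostdc1 at chr12:37040756-37045039 (+), Enpp2 at chr15:54670453-54751701 (-) and Folr1 at chr7:109006845-109019302 (-). It places Clic6 at chr16:92485981-92541488 (+), Aqp1 at chr6:55286426-55298549 (+), Cldn2 at chrX:136335367-136345925 (+), Kl at chr5:151755182-151796384 (+) and Otx2 at chr14:49277354-49287319 (-).

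Over all 8 libraries, Ttr was the most abundant of the 9 genes per length, with a mean of 429 RPKM (CPM per kilobase of annotated exon). Enpp2 followed with a mean of 21.2 RPKM, and in 1b+/- replicate 2 alone it exceeded Ttr (5.55 RPKM for Ttr, 23.4 RPKM for Enpp2). Sostdc1 (5.69), Clic6 (4.89), Otx2 (3.57), Aqp1 (3.32) and Folr1 (2.99) lay close together on that scale, and their ranges over libraries overlapped. Cldn2 had a mean of 1.23 RPKM and Kl a mean of 0.608 RPKM.

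Ttr encodes transthyretin, the secreted carrier of thyroxine and of the retinol-binding protein, and is the defining transcript of the choroid plexus. It reached 884 and 938 CPM in the 2 WT libraries, 168, 6.77, 154 and 886 CPM in 1b+/- replicates 1 to 4, and 379 and 766 CPM in the 2 1b-/- libraries. In counts, 1b+/- replicate 2 had 67 reads of Ttr and WT replicate 1 had 10695. The highest and the lowest library thus differed 139-fold, and 1 heterozygote sat at the WT level while another was far below every other mouse. Both 1b-/- libraries were under both WT libraries, whereas the range of the 1b+/- group contained all 4 of them except WT replicate 2.

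Sostdc1, a secreted antagonist of BMP and Wnt signalling, was at 17.5 and 17.9 CPM in WT, at 6.07, 2.32, 4.17 and 11.7 CPM in 1b+/-, and at 7.22 and 12.8 CPM in 1b-/-. It is the gene of the 9 whose 6 mutant libraries all lay below both WT libraries, and the WT pair differed by less than in any other genotype (17.7 ± 0.283 CPM, SD, n = 2, against 6.06 ± 4.05, n = 4, and 10 ± 3.92, n = 2). Enpp2 encodes autotaxin, the secreted enzyme that makes lysophosphatidic acid and which oligodendrocyte lineage cells express as well. Its level was 74.2 and 69.6 CPM in WT, 70.1, 81.1, 66.7 and 80.8 CPM in 1b+/-, and 72.6 and 73.6 CPM in 1b-/-. The highest Enpp2 level was found in 1b+/- replicate 2, the library with the least Ttr, and the whole range over 8 libraries was 1.22-fold.

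Each of the 3 transport genes had the same 4 highest libraries and the same lowest library as Ttr, in differing order among the 4. Clic6, a member of the chloride intracellular channel family, was at 26.0 and 32.6 CPM in WT, 8.71, 3.03, 10.8 and 30.7 CPM in 1b+/-, and 14.8 and 26.3 CPM in 1b-/-. Folr1, the folate receptor through which the epithelium moves folate into cerebrospinal fluid, was at 10.3 and 9.19 CPM in WT, 4.09, 0.606, 2.23 and 13.7 CPM in 1b+/-, and 4.41 and 10.5 CPM in 1b-/-. The value of 0.606 CPM rests on 6 reads (exact Poisson 95% interval 0.222 to 1.32 CPM, covering counting error only), and still lay below the intervals of the 7 other libraries, the lowest of which began at 1.63 CPM. Aqp1, the water channel of the apical membrane, was at 8.10 and 11.8 CPM in WT, 7.52, 3.03, 4.46 and 16.4 CPM in 1b+/-, and 8.08 and 10.5 CPM in 1b-/-, a narrower range (5.40-fold) than that of Folr1 (22.6-fold) or Clic6 (10.8-fold).

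Cldn2 encodes claudin-2, which forms cation- and water-permeable pores in the tight junctions of leaky epithelia. It was at 5.95 and 4.60 CPM in WT, 2.24, 1.21, 1.55 and 6.34 CPM in 1b+/-, and 3.55 and 7.26 CPM in 1b-/-, where the highest of all 8 values was found. Kl, which encodes the FGF23 co-receptor Klotho and is also transcribed in neurons, was at 3.72 and 2.76 CPM in WT, 3.30, 3.23, 2.37 and 3.67 CPM in 1b+/-, and 3.31 and 2.50 CPM in 1b-/-. The 3 genotypes overlapped throughout for Kl, and its levels spanned 1.57-fold. Otx2 was at 15.4 and 13 CPM in WT, 24.8, 9.70, 4.65 and 11.0 CPM in 1b+/-, and 6.61 and 11.8 CPM in 1b-/-, so that its peak came from 1b+/- replicate 1, in which Ttr was low.

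**Figure D1:**
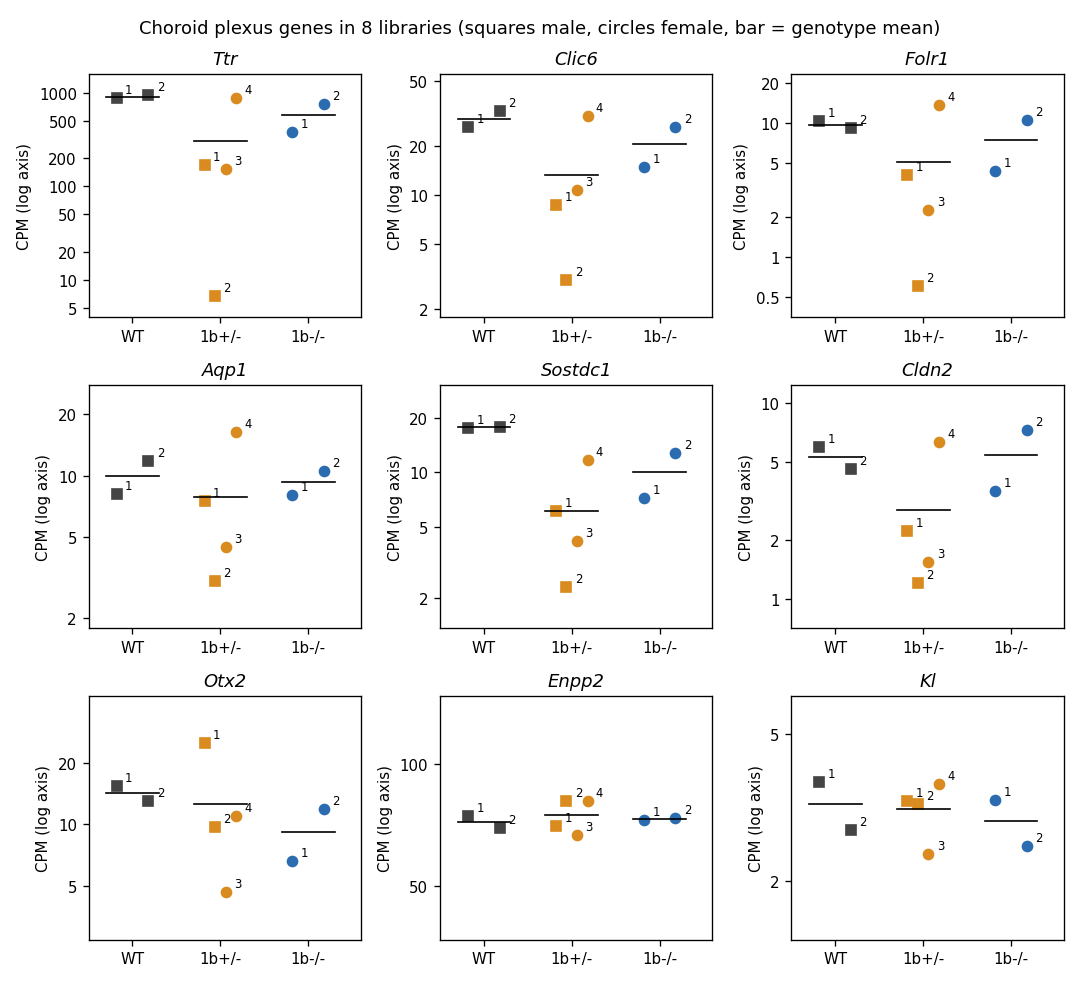
Level of each of the 9 genes in every library, in CPM on log axes whose range differs between panels, by genotype, with squares for male and circles for female mice, replicate numbers beside the points and a bar at the genotype mean. Ttr spans 6.77 to 938 CPM with 1b+/- replicate 4 at the WT level, while Enpp2 stays between 66.7 and 81.1 CPM.

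In 6 of the 9 genes (Ttr, Clic6, Folr1, Aqp1, Sostdc1 and Cldn2) the same 4 libraries were the highest, namely both WT, 1b+/- replicate 4 and 1b-/- replicate 2, and 1b+/- replicate 2 was the lowest. For Aqp1 the margin was small, with WT replicate 1 at 8.10 CPM and 1b-/- replicate 1, just under it, at 8.08 CPM. That top 4 was held by 1.75% of all 15588 genes tested, and 1b+/- replicate 2 was the lowest library for 19.3% of them. The 6 genes were put together after their values had been seen, so the shares are given as background and no test was made. Kl, Enpp2 and Otx2 had other orders, and each of these 3 was lowest in 1b+/- replicate 3.

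Summed over the 6 genes, the level was 952 and 1014 CPM in WT, 197, 17, 177 and 965 CPM in 1b+/-, and 417 and 833 CPM in 1b-/-. Ttr makes up most of this sum, and without it the other 5 genes gave 67.9 and 76.2 CPM in WT, 28.6, 10.2, 23.2 and 78.8 CPM in 1b+/-, and 38.1 and 67.3 CPM in 1b-/-. The same 4 libraries were the highest with and without Ttr, and 1b+/- replicate 4 lay between the WT libraries with Ttr and above both without it. In bulk RNA, fewer cells of a type and less RNA per cell cannot be told apart. Kl, Enpp2 and Otx2 together gave 73.7 to 98.2 CPM, and 94.0 CPM in the library where the 6 genes were at 17. Enpp2 makes up most of this second sum (81.1 CPM in that library), while Otx2 ranged 5.33-fold.

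**Figure D2:**
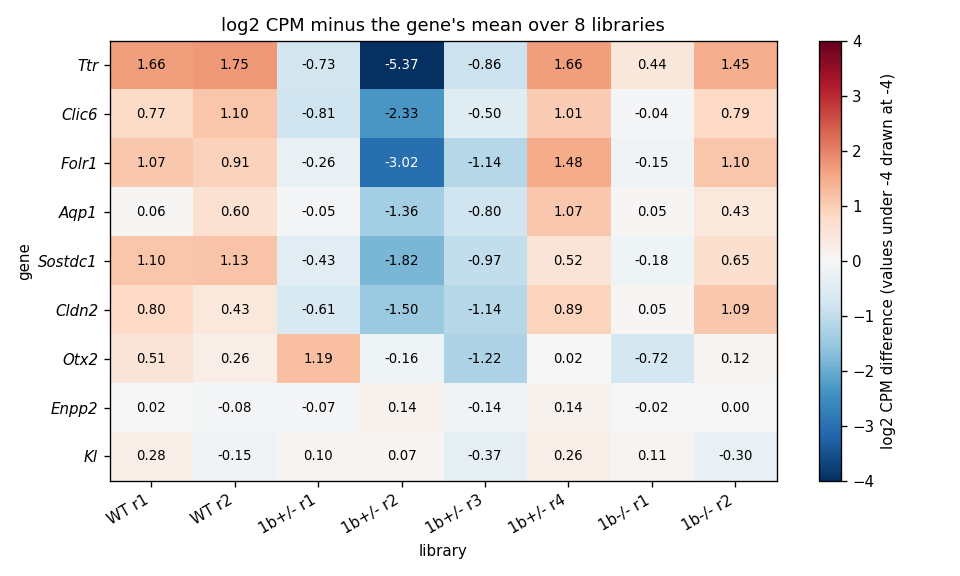
Difference of each gene's log2 CPM from its mean over the 8 libraries, with genes in rows and libraries in columns, red above and blue below the mean. 1b+/- replicate 2 lies at -5.37 for Ttr and between -3.02 and -1.36 for Folr1, Clic6, Sostdc1, Cldn2 and Aqp1, but at 0.14 for Enpp2 and 0.07 for Kl.

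The 6 genes did not scale by 1 common factor. For each read of Clic6 there were 34.0 and 28.7 reads of Ttr in WT, 28.9 in 1b+/- replicate 4, and 25.6 and 29.1 in 1b-/-. The ratio was 19.3 (exact 95% interval 16.2 to 23.2) in 1b+/- replicate 1 and 14.3 (12.4 to 16.4) in replicate 3. In 1b+/- replicate 2 it was 2.23 (1.43 to 3.56), which is lower than in any other library beyond counting error. Relative to Clic6, Ttr was thus lowest in the 3 libraries in which both were low. Ttr enters both the ratio and the choice of these 3 libraries, so this is a description only.

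The spread among mice of the same genotype was large for 7 of the 9 genes. The pooled within-genotype SD of log2 CPM was 2.28 for Ttr, 1.38 for Folr1 and 1.07 for Clic6, and lay between 0.77 and 0.83 for Sostdc1, Otx2, Aqp1 and Cldn2. Over all genes tested the median SD was 0.27. Among genes within 2-fold of the same mean level, Ttr stood at the percentile 99.9, Folr1 and Clic6 at 99.7, Otx2 at 98.7, Aqp1 at 98.5, Sostdc1 at 98.2 and Cldn2 at 95.8. Kl (SD 0.26, percentile 15.1) and Enpp2 (SD 0.12, percentile 16.7) varied less than most genes of their level. Most of this spread was within 1b+/-, where the SD of log2 CPM was 2.92 for Ttr.

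The comparison of 1b+/- with WT asks how loss of 1 copy of the 1b interval changes expression. None of the 9 genes passed the threshold (edgeR quasi-likelihood test, adjusted p under 0.05), which 0.0834% of all genes did. The fitted log2 fold change was -1.71 for Sostdc1 (SE 0.43, edgeR p 0.00179, adjusted p 0.466), and its 4 heterozygous libraries did not overlap with WT, a separation downward that 5.93% of all genes showed. No gene of the 9 separated upward, against 6.40% of all genes. It was -1.61 for Ttr (SE 0.99, adjusted p 1), -1.31 for Clic6 (SE 0.57), -1.26 for Folr1 (SE 0.72) and -1.19 for Cldn2 (SE 0.52). Aqp1 (-0.50, SE 0.49), Otx2 (-0.17, SE 0.50), Kl (-0.10, SE 0.32) and Enpp2 (0.05, SE 0.14) lay within about 1 SE of 0. At an unadjusted p under 0.05 there were 3 of the 9 genes (Sostdc1, Clic6 and Cldn2) and 4.34% of all genes. The median of the 9 was -1.19 against 0.01 over all genes, and 8 of 9 were negative against 47.9%. The 6 genes of the shared order varied together over the libraries. Counts of signs, here and in the other comparisons, are therefore not 9 separate readings.

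These fold changes depended on 1b+/- replicates 2 and 4, the extremes of the group. Without replicate 4 the log2 fold change of Ttr was -3.05, that of Folr1 -2.02 and that of Clic6 -1.92, and the smallest adjusted p among the 9 genes was 0.137 (edgeR, Sostdc1). Without replicate 2 they were -1.20, -0.87 and -0.97. Among males, with 2 mice a genotype, Ttr was at -3.37 (adjusted p 0.557), Clic6 at -2.28 (adjusted p 0.17) and Sostdc1 at -2.04 (adjusted p 0.235) by edgeR, with Otx2 at 0.29.

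In 1b-/- against WT, which asks for the effect of losing both copies, none of the 9 genes passed the threshold, against 0.00642% of all genes (1 gene, Scn1a itself). The largest differences were those of Sostdc1 (log2 fold change -0.87, SE 0.51), Otx2 (-0.68, SE 0.61) and Ttr (-0.67, SE 1.19), with edgeR adjusted p of 1 for each. In these 3 genes both 1b-/- libraries lay below both WT libraries, as they did for 12.0% of all genes. Clic6 (-0.54), Folr1 (-0.45), Kl (-0.15), Aqp1 (-0.10), Cldn2 (-0.03) and Enpp2 (0.02) differed by less than 1 SE. No gene of the 9 had an unadjusted p under 0.05, against 1.64% of all genes, and the median of the 9 was -0.45 against -0.01 over all genes, with 8 of 9 negative against 51.1%. With sex in the model the estimates for Ttr and Clic6 moved to -3.22 and -2.21, with an adjusted p of 1 by edgeR in both cases, and that of Otx2 to 0.65. This fit takes the sex term from the 1b+/- mice alone.

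In 1b-/- against 1b+/- the 9 genes again held none past the threshold, against 0.00642% of all genes, and none had an unadjusted p under 0.05, against 1.23%. DESeq2 and edgeR's likelihood ratio test also called none of the 9 in the 3 comparisons. All 6 genes of the shared order had positive estimates, from 0.40 for Aqp1 (SE 0.51) to 1.16 for Cldn2 (SE 0.55), with Ttr at 0.94 (SE 1.0), while Otx2 (-0.51), Kl (-0.04) and Enpp2 (-0.03) were negative, 3 of 9 against 51.0% of all genes. None of the 9 separated the 2 genotypes, whereas 3.98% of all genes did so downward and 3.41% upward. Without 1b+/- replicate 4 the value of Ttr was 2.38, and among females it was 0.15. This comparison shares its 1b+/- libraries, and the preceding one its WT libraries, with the first, so the 3 sets of values are not independent.

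**Figure D3:**
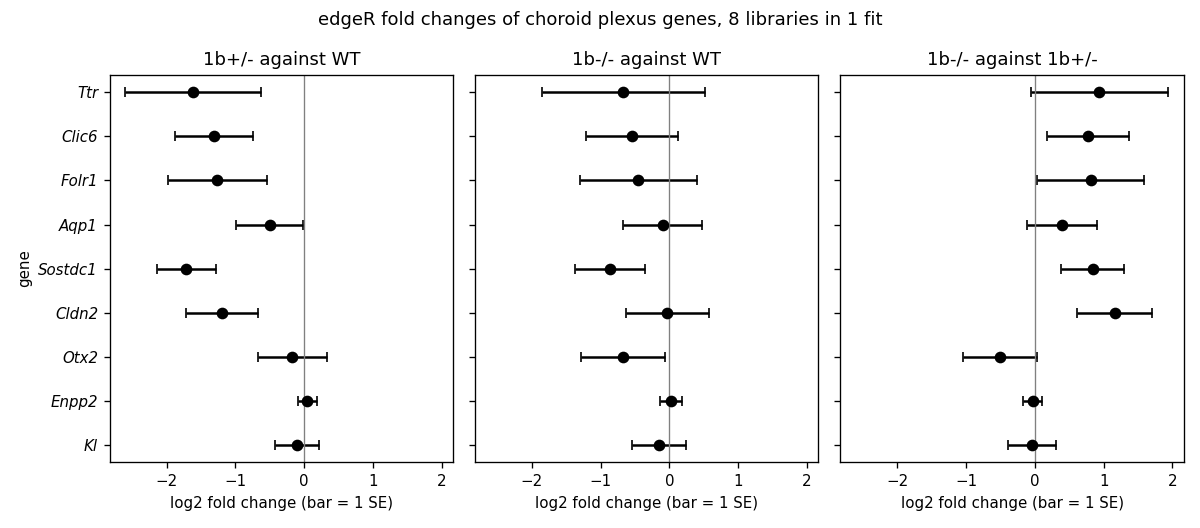
Fitted log2 fold change of each gene (point) with its SE (bar) in the 3 genotype comparisons, from 1 edgeR fit of 8 libraries. Estimates for Ttr run from -1.61 to 0.94 with bars of about 1 log2 unit, and those of Enpp2 lie between -0.03 and 0.05.

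The 1b+/- group is the only one with both sexes. Female against male, 0 of the 9 genes passed the threshold, against 0.0321% of all genes, and 3 had an unadjusted p under 0.05, against 2.66%. Those were Ttr (log2 fold change 2.55, SE 1.07, edgeR p 0.0374), Clic6 (1.67, SE 0.55, p 0.0119) and, in the opposite direction, Otx2 (-1.32, SE 0.51, p 0.0254), all with an adjusted p of 1. Of the 9 estimates 3 were negative, against 50.7% over all genes. For Ttr the sexes overlapped, since the male replicate 1 (168 CPM) exceeded the female replicate 3 (154 CPM), and they overlapped for Otx2 too. Clic6 alone separated the 2 males (8.71 and 3.03 CPM) from the 2 females (10.8 and 30.7 CPM), as 26.2% of all genes did in either direction. Without the female replicate 4 the estimate for Ttr was 0.80.

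A wider list of 33 choroid plexus epithelial genes, of which 30 were tested, was read beside the 9. In 1b+/- against WT 1 of the 30 passed the threshold, Krt8, an epithelial keratin, at 19.3 and 6.13 CPM in WT, 0.330, 1.01, 0.388 and 1.67 CPM in 1b+/-, and 0.857 and 0.250 CPM in 1b-/-. The 1b+/- values of Krt8 rest on 5, 10, 8 and 5 reads, and that of 1b-/- replicate 2 on 1 read. Its log2 fold change was -4.33 (SE 0.56, edgeR adjusted p 0.0243), and -3.17 without WT replicate 1, a fit with 1 WT library. By edgeR the call was lost without 1b+/- replicate 3 (adjusted p 0.131), in males only (adjusted p 0.0973) and with sex in the model (adjusted p 0.151). Krt8 did not share the order of Ttr, since 1b+/- replicate 4 was below both WT libraries like the other mutants. The list's median was -0.39, with 26 of 30 negative against 47.9% of all genes. Its median in 1b-/- against WT was -0.33, with 26 of 30 negative against 51.1% and none called.

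Genes within that list differed widely in their range. Kcne2, a subunit of potassium channels in the apical membrane, was at 23.2 and 23.9 CPM in WT, 6.01, 0.404, 5.82 and 18 CPM in 1b+/-, and 11.3 and 21.3 CPM in 1b-/-, a 59.2-fold range. Calml4 ranged from 0.707 to 10 CPM (14.2-fold) and the bicarbonate transporter gene Slc4a5 from 0.808 to 7.36 CPM (9.10-fold), with the lowest value in 1b+/- replicate 2 for all 3. These 3 were picked out after their values were seen. The most abundant genes of the list, Igfbp2 (62.9 to 137 CPM), the copper transporter gene Slc31a1 (44.7 to 61.5 CPM) and Slc29a4 (36.9 to 46.7 CPM), which encodes a monoamine transporter, ranged 2.18-fold, 1.37-fold and 1.27-fold. Of the 30 tested genes, 16 were lowest in 1b+/- replicate 2, as 19.3% of all genes were.

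By the Pearson correlation of log2 CPM with the mean standardized profile of the 9 genes over the 8 libraries, the nearest of 13953 other genes was Cdh3, which encodes P-cadherin (r = 0.968). Its level was 5.87 and 5.06 CPM in WT, 3.56, 1.92, 2.62 and 6.34 CPM in 1b+/-, and 3.92 and 6.01 CPM in 1b-/-, and the 4 highest libraries were those of Ttr. Tinagl1 (0.947), Hrsp12 (0.936), 1700016K19Rik (0.935), Tbc1d8 (0.921), Col9a3 (0.918), Snora7a (0.911), Cstf1 (0.903), Calml4 (0.901) and Agfg2 (0.899) came next, and Calml4 was the 1 gene among these 10 that the wider list also held. All points share their libraries and depths, and the values are a description over 8 points chosen from many genes.

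Markers of neighbouring cell types were read in the same libraries. Ependymal cells line the ventricle next to the choroid plexus, and a list of 12 of their genes summed to 53.8 and 58.2 CPM in WT, 28.8, 21.8, 28.0 and 39.4 CPM in 1b+/-, and 37.9 and 52.8 CPM in 1b-/-, again with the least in 1b+/- replicate 2. None of the 10 tested passed the threshold, 9 of 10 were negative in 1b+/- against WT with a median of -1.01, and the smallest adjusted p was 0.0562 (edgeR, Rsph4a, a radial spoke gene of motile cilia). Unlike Ttr, the 4 heterozygotes all lay below WT in this sum. By gene, 5 of the 10 tested did so, against 5.93% of all genes. Foxj1, the most abundant, overlapped, with 1b+/- replicate 4 at 9.35 CPM and WT replicate 1 at 9.18 CPM. The part of ependymal cells in the values of the 9 genes was not tested, nor was that of choroid plexus cells in the ependymal list. The 2 are therefore not separate readings.

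Genes of the diencephalon and midbrain, where Otx2 is also expressed, summed over 13 genes to 272 and 72.0 CPM in WT, 322, 104, 76.0 and 57.8 CPM in 1b+/-, and 76.3 and 175 CPM in 1b-/-. Their highest library was 1b+/- replicate 1, the one with the most Otx2, and 11 of the 13 genes peaked there, as 15.3% of all genes did. The sum over 13 oligodendrocyte genes was 97.5 and 133 CPM in WT, 185, 191, 152 and 136 CPM in 1b+/-, and 107 and 141 CPM in 1b-/-, with its peak in 1b+/- replicate 2, where Enpp2 peaked as well. How much these cells contributed to Otx2 or Enpp2 was not tested.

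**Figure D4:**
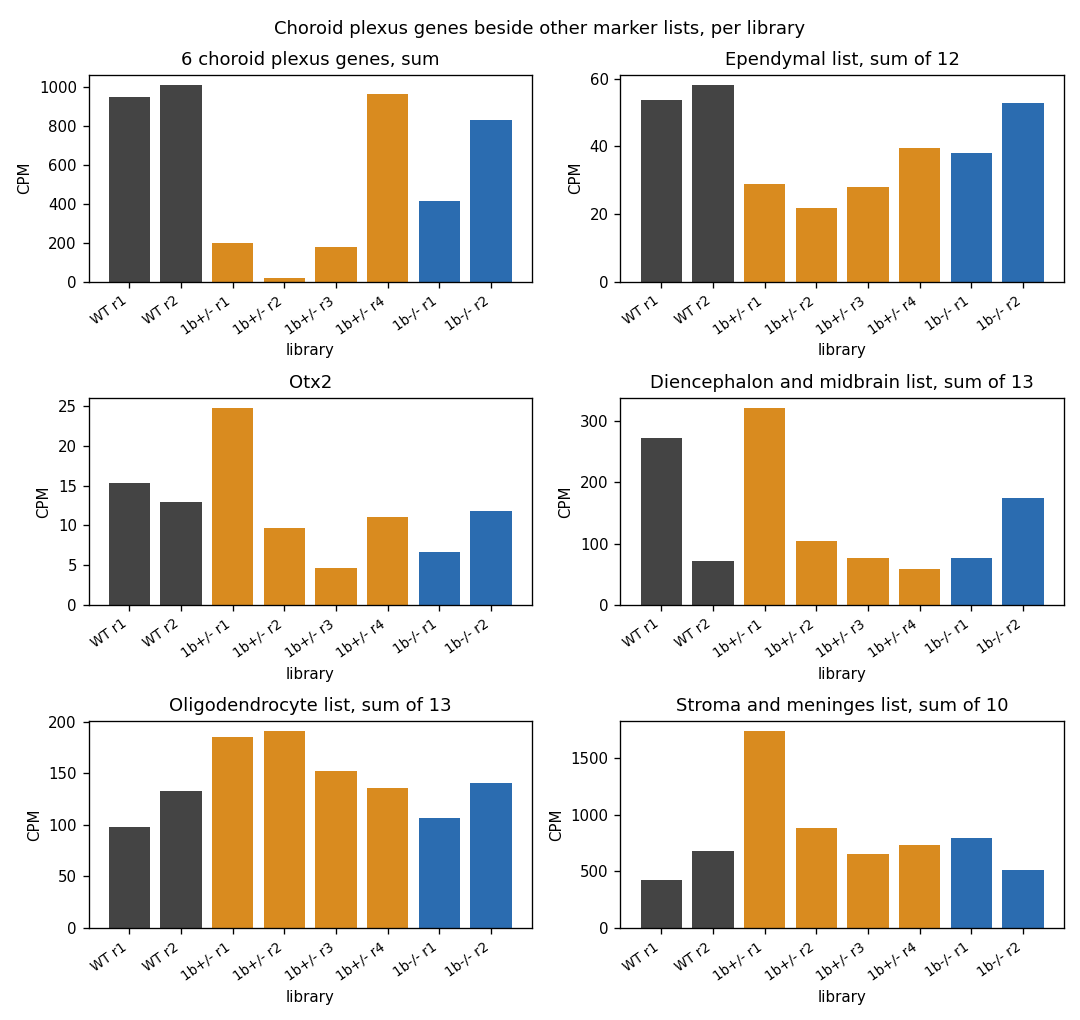
CPM in each library, summed over Ttr, Clic6, Folr1, Aqp1, Sostdc1 and Cldn2, for Otx2 alone, and summed over the ependymal, diencephalon and midbrain, oligodendrocyte, and stroma and meninges lists, with WT in grey, 1b+/- in orange and 1b-/- in blue. The 6 genes and the ependymal list are lowest in 1b+/- replicate 2 (17 and 21.8 CPM), and Otx2 and the diencephalon and midbrain list are highest in 1b+/- replicate 1 (24.8 and 322 CPM).

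The choroid plexus also holds stroma and fenestrated vessels. The 10 genes of stroma and meninges ran otherwise than the 6 genes of the shared order. They summed to 426 and 680 CPM in WT, 1741, 884, 656 and 730 CPM in 1b+/-, and 795 and 511 CPM in 1b-/-. Of the 10 genes, 8 peaked in 1b+/- replicate 1, as 15.3% of all genes did. All 10 were positive in 1b+/- against WT (median 0.75), and none passed the threshold. The 6 endothelial genes summed to 201 to 315 CPM with none called. How much of the stromal and endothelial sums came from the choroid plexus was not tested. Of 4 genes of the pineal gland, which lies near the third ventricle, 3 were tested, and the 4 summed to 6.28 to 8.27 CPM in WT, 1.67 to 3.03 CPM in 1b+/- and 2.75 to 3.55 CPM in 1b-/-. Tph1, which encodes a tryptophan hydroxylase, passed in 1b+/- against WT (log2 fold change -2.36, SE 0.35, edgeR adjusted p 0.0317), but not without either WT library, without any 1 of the 4 heterozygotes, or with sex in the model. The defining pineal gene Aanat had at most 6 counts. Lists for striatum (130 to 232 CPM) and neocortex (670 to 1247 CPM) held no called gene, nor did that for hippocampus.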

How the data were processed

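Total RNA from P7 mouse brain was made into stranded poly(A) libraries, pooled and read as single-end 50-base reads. Per the labels and methods, the authors aligned reads to mm9 with STAR 2.7.2 and counted them per gene symbol with featureCounts, and the deposited values are raw counts. The annotation release and use of strand were not given in the sources used here, so reads of overlapping or antisense genes may be shared. Per-gene counts were fitted in R 4.3.3 with edgeR 4.0.16 (TMM, quasi-likelihood, Benjamini-Hochberg), genotype as the term and all 8 libraries in 1 fit, on the genes that reached 1 CPM in any library. Female and male 1b+/- mice were compared with sex within genotype as the term. Group values are means ± SD. log2 CPM used a prior count of 2, and RPKM used merged exon lengths of the GENCODE annotation of mm9. Intervals (Poisson, Clopper-Pearson) cover counting error at 95%, and reads without molecular identifiers are not independent molecules. The labels give 1 mouse per library, so p-values measure the spread between these mice. The fit was tested on simulated counts with 200 changed genes. Alternatives were filterByExpr or no filter, RLE or upper-quartile scaling, the likelihood ratio test, DESeq2 1.42.0, sex as a covariate, fewer groups, 1 sex only, and leaving out each library. The genes named were the 9, Scn1a, the 3 most abundant genes and any called gene of each list, and the 10 genes nearest in profile, except that 1 gene of a marker list is not reported here. The 9 genes and all lists were chosen with earlier results of these data known. Promoter windows were from RefSeq (GRCm38.p6).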

Additional observations from a re-analysis of the deposited data

Results flagged for a closer look

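None of the 9 choroid plexus genes had a single 1b+/- library set apart from the other 3 by more than Dixon's 95% critical gap. Ttr fell short of that gap although 1b+/- replicate 4 was at 886 CPM and the other 3 were at 6.77 to 168 CPM. Of 51 genes examined, the 9 included, 3 had such a gap, where the rule gives 2.55 for normally distributed values. That the CPM were so distributed was not tested, so 2.55 is a rough guide only. All 3 gaps were those of 1b+/- replicate 1, which also had the highest Otx2 level. Col1a2, a fibrillar collagen gene of stroma and meninges, was at 539 CPM there and at 143 to 176 CPM in the other heterozygotes, with a gap of 0.918 of the range. Col1a1 was at 380 CPM against 55.8 to 102 CPM (gap 0.858), and Lhx9, a thalamic homeobox gene, at 106 CPM against 16.4 to 26.5 CPM (gap 0.887).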

How the results depend on the processing

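No gene of the 9 was called in 1b-/- against WT or against 1b+/- under the 16 and 17 alternatives run. In 1b+/- against WT, 1 of 17 alternatives called any, namely no filter on low counts, with 1 gene (Sostdc1, adjusted p 0.00657), where 57 of all 22443 genes were called. In female against male 1b+/-, 1 of 14 did, again no filter, with 3 genes (Ttr, adjusted p 2.05e-36, Clic6, 1.28e-05, and Otx2, 0.0217), where 85 of all 22443 were called, although the sexes overlapped for Ttr and Otx2. Of the wider list of 33, whose alternatives were added after seeing the data, 1b+/- against WT gave 5 genes with no filter (57 of all 22443), 5 with the likelihood ratio test (64 of all 15588), 3 with DESeq2 (24 of all 15588), and 0 with sex as a covariate or in males only, and leaving out 1 library gave 0 to 1. 1b-/- against WT gave 1 (Krt8) with no filter (33 of all 22443), the likelihood ratio test (23 of all 15588), DESeq2 (13 of all 15588) or only the genotypes compared (15 of all 14894), and 0 to 1 on leaving out 1 library. Female against male gave 2 with no filter (85 of all 22443) and 0 to 1 on leaving out 1 library. The cause of these changes was not tested.

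Directions turned in 34 of the single-gene values, against 538 that kept direction and side of the threshold and 4 that newly passed it. Outside the leave-one-out fits, in 1b+/- against WT Otx2 turned to 0.29 with sex as a covariate and 0.29 in males, and Kl to 0.00 in males. In 1b-/- against WT, sex as a covariate turned Kl to 0.08 and Otx2 to 0.65. In 1b-/- against 1b+/- it turned Kl to 0.08 and Otx2 to 0.36, and females alone gave Kl 0.12, Enpp2 0.00 and Otx2 0.38. Leaving out 1 library gave ranges that crossed 0. In 1b+/- against WT they were -0.28 to 0.15 for Kl and -0.85 to 0.14 for Otx2. In 1b-/- against WT they were -0.39 to 0.10 for Kl, -0.58 to 0.45 for Cldn2, -0.36 to 0.18 for Aqp1, -0.02 to 0.07 for Enpp2 and -1.14 to 0.11 for Folr1. In 1b-/- against 1b+/- they were -0.29 to 0.11 for Kl, -0.94 to 0.17 for Otx2 and -0.08 to 0.02 for Enpp2. In female against male they were -0.18 to 0.10 for Enpp2, -0.46 to 0.17 for Kl, and, with the negative end in the fit without 1b+/- replicate 4, -0.15 to 3.31 for Folr1, -0.27 to 1.60 for Aqp1, -0.04 to 1.51 for Sostdc1 and -0.19 to 1.83 for Cldn2. Ttr and Clic6 turned in no comparison, with leave-one-out ranges of -3.05 to -1.20 and -1.92 to -0.97 in 1b+/- against WT.

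No paired analysis was possible because replicate numbers follow sample order and the labels share none between genotypes. With 2 WT and 2 1b-/- mice, sex confounded with genotype between them, and 2947770 reads in 1b+/- replicate 4, the smallest library, differences of the size of the spread in Ttr could not be resolved, and genes near 1 CPM rest on few reads.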
